A study of Mus musculus with 6 samples.

Results

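Expression of 6 genes known as modifiers of spinal muscular atrophy (SMA) or as their binding partners, Pls3, Coro1c, Ncald, Chp1, Zpr1 and Uba1, was examined in the mouse spinal cord. They were chosen by gene symbol and are 6 of the 25576 genes listed above 0 in at least 1 library, and all 6 were listed in each of the 6 libraries. Bulk RNA sequencing was done on spinal cord of FVB mice at postnatal day 4, with 3 libraries per group. SMA mice had the genotype mSmn-/-, hSMN22tg/0, which means that mouse Smn is knocked out and a human SMN2 transgene is carried. Control mice (mSmn+/-, hSMN22tg/0) were heterozygous for the same knockout and carried the same transgene, so neither group was wild type. By its methods the study sequenced triplicates but with an n of 1 per group, and the labels do not say whether the libraries of a group came from separate animals, so p-values measure only the spread between these libraries, part of which may be technical. In SMA replicate 3 the inactive X transcript Xist was present and Y-linked transcripts were nearly absent, while SMA replicates 1 and 2 showed the opposite, so the SMA libraries were not all repeats of 1 animal.

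SMA results from too little SMN protein, and its severity is altered by genes that act on the actin cytoskeleton, on endocytosis, on transcription or on protein turnover. Raising plastin 3 or its partner coronin 1C, and lowering the calcium sensors neurocalcin delta or CHP1, have been described as protective through the uptake of synaptic vesicles at motor nerve terminals. The zinc finger protein ZPR1 binds SMN, and the ubiquitin-activating enzyme UBA1 has been described as reduced in SMA tissue. Only RNA was measured here, so the values do not give the levels of these proteins.

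Smn1 itself overlapped between the groups. The gene (ENSMUSG00000021645) was at 10.4, 8.64 and 11.9 FPKM in the control libraries, in the order of their replicate numbers, and at 8.48, 9.30 and 11.1 FPKM in the SMA libraries, where FPKM is the number of sequenced fragments scaled to exon length and to the mapped fragments of the library. SMA over control gave a log2 fold change of -0.09 (limma, SE 0.15, adjusted p = 0.819), which was -0.20 (adjusted p = 0.614) without control replicate 2 and 0.01 without control replicate 3. A gene-level value includes any part of the transcript that the knockout allele leaves, and reads from the human transgene may align to the mouse gene, so Smn1 did not check the labels.

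Control replicate 2 stood apart from the other 5 libraries. Transcripts of 20 hepatocyte marker genes made up 7.11% of its summed FPKM, against 0.0199% to 0.0362% in the others, and all 20 were highest there. Over the other 5 libraries, 17 of the 20 still had a mean FPKM of 0.5 or more, and 3 of the 20 were listed at 0 in at least 1 library. Alb, the most abundant of them, was at 15894 FPKM in control replicate 2, while the other libraries lay between 24.6 and 56.2. Erythroid markers took 4.56% there against 0.304% to 0.517% elsewhere, with Hbb-bs the most abundant, and neutrophil markers, led by S100a8, took 0.101% against at most 0.00321%. All 11 neuron markers were lowest in control replicate 2, and their summed FPKM was 881 there, compared with 1639 and 1623 in control replicates 1 and 3 and with 1602, 1739 and 1736 in SMA. The most abundant of them, the growth cone protein Stmn2, was at 459, 235 and 416 FPKM in control and at 426, 468 and 459 in SMA. Across the genes tested, 44.9% were lowest and 24.7% were highest in control replicate 2, whose log2(FPKM + 1) values correlated with those of any other library at no more than r = 0.849 across genes, against at least 0.983 among the other 5, where genes are not independent replicates. Values are therefore given with and without it. In bulk tissue, fewer cells of a type and less RNA per cell cannot be told apart.

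None of the 6 modifier genes differed between SMA and control by more than the spread between libraries. With all 6 libraries, 0 of 6 passed an adjusted p of 0.05 in limma, as did 0% of the 17088 genes tested, and 0 of 6 had an unadjusted p under 0.05, which 409 genes (2.39% of those tested) reached with a lower value and 581 (3.4%) with a higher value in SMA. By the thresholds of the study's methods, an unadjusted p under 0.05 with a fold over 2, 0.0995% of genes were lower and 0.0702% higher in SMA, and none of the 6 was among them. The groups overlapped for all 6 genes, while they did not overlap for 17% of genes tested. Without control replicate 2, again 0 of 6 passed any of these rules or had groups that did not overlap. There, 0.0121% of the 16574 genes tested had an adjusted p under 0.05, 5.2% had an unadjusted p under 0.05 with a lower value and 5.27% with a higher value, 0.0422% and 0.0965% were lower and higher by the study's thresholds, and 28.1% had groups that did not overlap. The genes with an adjusted p under 0.05 in that comparison, named after their values were seen, were the noncoding RNAs Snora74a and Rpph1, both higher in SMA.

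**Figure D1:**
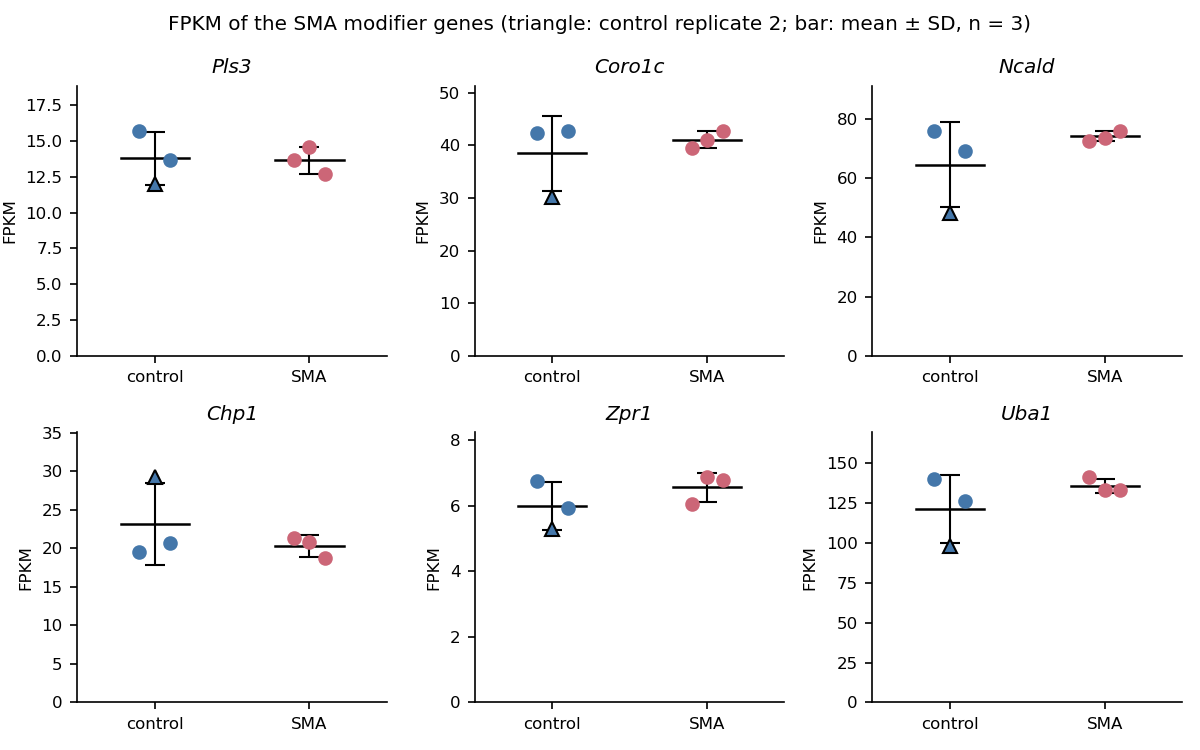
FPKM of the 6 modifier genes in each library (y axis, from 0) by group (x axis), with the mean and SD of 3 libraries and control replicate 2 as a triangle. Control replicate 2 is the lowest point for Pls3, Coro1c, Ncald, Zpr1 and Uba1 and the highest for Chp1 at 29.2 FPKM.

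The order of levels was the same in all 6 libraries, on the FPKM scale, which is per length of exon. Uba1 was highest (97.9 to 141 FPKM), followed by Ncald (48.3 to 75.8), Coro1c (30.2 to 42.7), Chp1 (18.7 to 29.2), Pls3 (12 to 15.7) and Zpr1 (5.31 to 6.87). Neighbours in this order did not overlap over the 6 libraries. Coro1c and Chp1 came closest in control replicate 2, where Coro1c was 1.04 times Chp1, against 1.84 to 2.29 times in the other 5. Mean levels of Uba1 and Zpr1 were above those of 98.3% and 45.3% of genes tested, so the set reached from among the most abundant transcripts of the cord to the middle of the range. Without control replicate 2, the highest and the lowest library of a gene differed by 1.08-fold for Coro1c, 1.10-fold for Ncald, 1.11-fold for Uba1, 1.15-fold for Chp1, 1.16-fold for Zpr1 and 1.24-fold for Pls3. Their ranges of log2(FPKM + 1) over these 5 libraries, 0.11 for Coro1c to 0.29 for Pls3, lay under the median of 0.33 over all genes tested. That median takes in genes of much lower level, and the 6 genes were not compared with genes of like level.

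Pls3 encodes the actin-bundling protein plastin 3 and lies on the X chromosome (ENSMUSG00000016382, chrX:75785654-75875182 on GRCm38, minus strand). Control libraries had 15.7, 12 and 13.7 FPKM, and SMA libraries had 13.7, 14.6 and 12.7. Both the highest and the lowest of these values were controls, and the SMA libraries lay within the control range. The means were 13.8 ± 1.89 in control and 13.7 ± 0.997 in SMA (SD, n = 3 libraries each), with a log2 fold change of -0.01 (95% interval -0.30 to 0.29, limma adjusted p = 0.985). Without control replicate 2 the value was -0.10 (-0.32 to 0.13).

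Coro1c encodes coronin 1C, an F-actin-binding protein (ENSMUSG00000004530, chr5:113842436-113908758, minus strand). It was at 42.4, 30.2 and 42.7 FPKM in control and at 39.5, 40.9 and 42.7 FPKM in SMA. Control replicate 2 was the low library, and the other 5 lay close together. With it the log2 fold change was 0.11 (-0.25 to 0.47, limma adjusted p = 0.78), and without it the sign turned, to -0.05 (-0.19 to 0.09).

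Among the 8 other plastins and coronins, all tested, 0 passed an adjusted p of 0.05. At an unadjusted p under 0.05, 2.39% of genes tested and 1 of the 8 were lower. This was Lcp1, the leukocyte plastin, at 5.87, 12.5 and 6.92 FPKM in control and 4.29, 3.92 and 4.71 in SMA. It was also the only one at an unadjusted p under 0.05 without control replicate 2, where 5.2% of genes tested were lower at that p. All SMA values of Lcp1 lay below all control values, with control replicate 2 the highest. Its log2 fold change was -0.77 (limma adjusted p = 0.683) with all libraries and -0.48 without control replicate 2 (adjusted p = 0.318). Coro1b and Coro1a, the most abundant others, lay between 23.9 and 27.6 FPKM and between 19.7 and 23.4 FPKM, and both overlapped between the groups with all libraries. Without control replicate 2 the groups still overlapped for Coro1b but not for Coro1a, at 23.4 and 23.3 FPKM in control and 22.8, 22.4 and 21.1 in SMA (log2 fold change -0.08). The median log2 fold change of the 8 was 0.03, and -0.04 without control replicate 2, beside 0.04 and 0.002 over all genes tested.

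Ncald encodes neurocalcin delta, a calcium sensor of neurons (ENSMUSG00000051359, chr15:37366175-37792570, minus strand). It was at 75.8, 48.3 and 69.0 FPKM in control and at 72.5, 73.6 and 75.8 FPKM in SMA. The low value was control replicate 2, and the SMA libraries lay between control replicate 3 and control replicate 1 or level with the latter. Its log2 fold change was 0.22 (-0.19 to 0.64, limma adjusted p = 0.683), the largest in size among the 6 genes, and 0.03 (-0.11 to 0.18) without control replicate 2. In GENCODE M21, 11 other genes overlap the Ncald locus, 6 of them on the same strand, but the highest FPKM among these 11 was 3.87, in Gm15941.

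The sensors related to Ncald had the same low library. Of the 12 other genes of that family, Guca1b was not listed and 9 were tested, and all 9 were lowest in control replicate 2. None passed an adjusted or unadjusted p of 0.05, with control replicate 2 or without it. Vsnl1, the most abundant, was at 82.0, 41.9 and 80.2 FPKM in control and at 78.7, 99.8 and 98.5 FPKM in SMA, and Hpca, a hippocalcin, at 71.1, 34.7 and 69.8 and at 68.6, 77.3 and 75.4. The family's median log2 fold change was 0.23 with all libraries and -0.01 without control replicate 2, against 0.34 and 0.35 without control replicates 1 and 3. Control replicate 2 had 0.667 times the Ncald level of the mean of the other controls, 0.548 times that of the other sensors summed, and 0.54 times that of the summed neuron markers. By the same measure, astrocyte, oligodendrocyte, OPC and Schwann cell markers were also lower there, at 0.812, 0.777, 0.766 and 0.743 times. Microglia, endothelial and fibroblast markers were higher there, at 1.38, 1.14 and 1.1 times, as were the liver and blood markers given above.

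Chp1 encodes a calcineurin B homologous protein that binds plastin 3 and restrains the phosphatase calcineurin (ENSMUSG00000014077, chr2:119547697-119587027, plus strand). It was at 19.5, 29.2 and 20.7 FPKM in control and at 21.4, 20.8 and 18.7 FPKM in SMA. Of the 6 genes, Chp1 alone had its highest value in control replicate 2, at 1.45 times the mean of the other controls, where the other genes were at 0.667 to 0.836 times. Its log2 fold change was -0.16 (-0.55 to 0.23, limma adjusted p = 0.709), and 0.01 (-0.18 to 0.20) without that library.

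For relatives of Chp1, calcineurin subunits and calcineurin regulators, 10 other genes were tested and 0 passed an adjusted or unadjusted p of 0.05. Of these, 7 were lowest and 1 was highest in control replicate 2. The latter was Chp2, named after its values were seen, at 1.11 FPKM there and at most 0.673 FPKM elsewhere. Its mean FPKM of 0.545 passed the filter with that library, and it was not tested without it. The catalytic subunit Ppp3ca was at 140, 91.2 and 136 FPKM in control and at 127, 131 and 136 in SMA. The regulatory subunit Ppp3r1 was at 120, 68.4 and 114 in control and at 93.7, 105 and 102 in SMA, so all its SMA values lay under control replicates 1 and 3 and above control replicate 2. Without that library its log2 fold change was -0.22 (limma adjusted p = 0.366). It was the only call at an unadjusted p under 0.05 in this list, beside 5.2% of genes tested that were lower. In the list of clathrin-mediated endocytosis, the process on which plastin 3, neurocalcin delta and CHP1 act, 26 genes were tested, 0 were called by either p with all libraries, and 20 were lowest in control replicate 2. Its most abundant members were the clathrin heavy chain Cltc (140 to 189 FPKM) and the dynamin Dnm1 (81.5 to 160 FPKM), each lowest there. Its median log2 fold change was 0.15, and 0.00 without control replicate 2, against 0.23 without control replicate 1 or 3. Leaving that library out, 0 of the 26 passed an adjusted p of 0.05. At an unadjusted p under 0.05, 1 was lower and 1 was higher, beside 5.2% and 5.27% of genes tested. The calls were Cltc (log2 fold change -0.14) and the scaffold protein gene Itsn1 (0.15), the latter named after its values were seen.

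**Figure D2:**
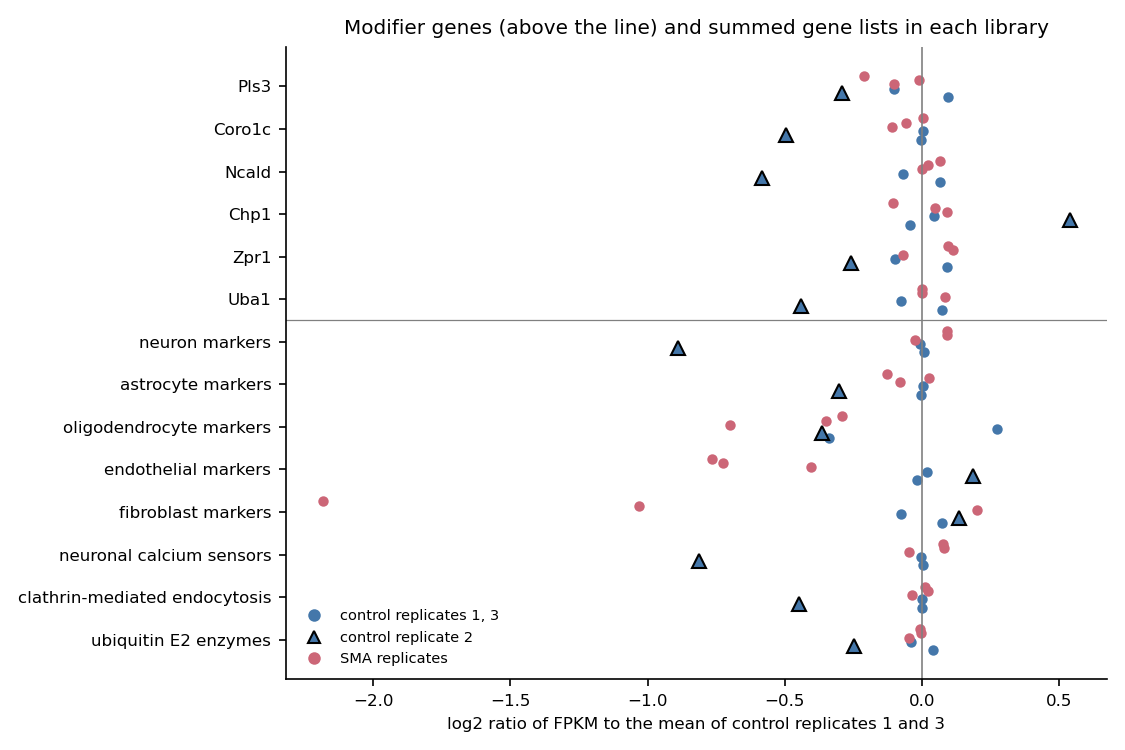
Log2 ratio of each library to the mean of control replicates 1 and 3 (x axis) for the 6 modifier genes, above the line, and for the summed FPKM of gene lists, below it, with Ncald counted among the calcium sensors. Control replicate 2 (triangle) lies left of the other libraries for 5 genes, the neuron and astrocyte markers, the calcium sensors, the endocytosis list and the E2 enzymes. It lies right of them for Chp1 and the endothelial markers.

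Zpr1 encodes a zinc finger protein that binds SMN and takes part in resolving RNA-DNA hybrids, or R-loops (ENSMUSG00000032078, chr9:46273064-46282643, plus strand). It was at 6.77, 5.31 and 5.93 FPKM in control and at 6.06, 6.87 and 6.78 FPKM in SMA. The lower values were control replicates 2 and 3 and SMA replicate 1, and control replicate 1 lay above SMA replicate 1, so the groups overlapped. Its log2 fold change was 0.12 (-0.17 to 0.40, limma adjusted p = 0.709), and 0.04 (-0.21 to 0.30) without control replicate 2.

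Among other factors that act on R-loops, 10 were tested, of which 0 passed an adjusted p of 0.05. At an unadjusted p under 0.05, 2 of the 10 were lower, beside 2.39% of genes tested. The median log2 fold change was -0.18, or -0.12 without control replicate 2, beside 0.04 and 0.002 over all genes tested. Brca1, a DNA repair factor, was at 1.77, 3.76 and 2.11 FPKM in control and at 1.34, 1.32 and 0.996 in SMA (log2 fold change -0.64, limma adjusted p = 0.683). Rnaseh2b, a subunit of RNase H2, was at 4.30, 5.87 and 6.04 in control and at 3.81, 4.22 and 3.88 in SMA (log2 fold change -0.36, adjusted p = 0.683). All SMA values of both genes lay below all control values, and without control replicate 2 their log2 fold changes were -0.41 and -0.30. The topoisomerase Top1, the second most abundant of the list, was at 27.8, 26.5 and 29.0 in control and at 23.7, 24.6 and 24.5 in SMA, also without overlap, with a log2 fold change of -0.19 (adjusted p = 0.683). In the comparison without control replicate 2, 0 passed an adjusted p. Again 2 of the 10 were lower at an unadjusted p under 0.05, beside 5.2% of genes tested. The 2 were Brca1 and Top1 (-0.22), and Rnaseh2b was no longer among them. The helicase Dhx9, the most abundant, overlapped at 41.5 to 48.2 FPKM.

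Uba1 encodes the enzyme that activates ubiquitin and is X-linked (ENSMUSG00000001924, chrX:20658326-20683179, plus strand). It was at 140, 97.9 and 126 FPKM in control and at 141, 133 and 133 FPKM in SMA. Control replicate 2 was again lowest, and control replicate 1 was as high as the SMA libraries. Its means were 121 ± 21.4 in control and 135 ± 4.48 in SMA (SD, n = 3 libraries each), with a log2 fold change of 0.17 (-0.19 to 0.53, limma adjusted p = 0.684), and 0.03 (-0.13 to 0.18) without control replicate 2. Its Y-linked relative Uba1y, looked at after its values were seen, was listed at 0.0627 FPKM in control replicate 1 and not listed in the other 5 libraries.

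Related activating enzymes include Uba7, which activates the ubiquitin-like protein ISG15. Of 9 others tested, 0 passed an adjusted p of 0.05 and 1, Uba7, was lower at an unadjusted p under 0.05. Uba7 was at 2.78, 7.85 and 1.71 FPKM in control and at 0.724, 0.602 and 0.361 in SMA, without overlap and with control replicate 2 the highest. Its log2 fold change was -1.53 (limma adjusted p = 0.683), and -1.04 without that library (adjusted p = 0.264). There, 3 of the 9 were lower at an unadjusted p under 0.05 and 0 passed an adjusted p. These were Uba7 together with Uba6 (-0.28) and Uba3 (-0.16), these last 2 named after their values were seen. Over all genes tested, 2.39% were lower at that p with all libraries and 5.2% without control replicate 2. Sae1 and Uba2, which together activate SUMO, overlapped at 25.3 to 33.1 and 23.4 to 30.5 FPKM. Of 29 genes of the ubiquitin-conjugating (E2) family, whose enzymes act after an activating enzyme, 0 passed an adjusted p of 0.05. At an unadjusted p under 0.05, 1 of the 29, Ube2e2, was higher, beside 3.4% of genes tested. Ube2e2 was at 43.6, 36.7 and 39.6 FPKM in control and 46.1, 49.3 and 52.4 in SMA, without overlap (log2 fold change 0.30, limma adjusted p = 0.683). It was not called with the same total in every library, with the replicate number as a block, or without SMA replicate 2 or 3. Its log2 fold change in these settings was 0.25 to 0.32. With control replicate 2 left out, 0 E2 genes passed an adjusted p of 0.05, and Ube2e2 (0.24) was higher at an unadjusted p under 0.05. At that p 2 were lower, Ube2d2a (-0.14) and Ube2l3 (-0.13), both named after their values were seen. Over all genes tested there, 5.27% were higher and 5.2% lower. Ube2v1 and Ube2d3, the most abundant E2 family genes, overlapped at 67.8 to 85.2 and 70.9 to 81.3 FPKM. Ctnnb1 and Gars, whose proteins have been described as altered when UBA1 is low, had log2 fold changes of 0.14 and 0.11, and of 0.05 and -0.01 without control replicate 2. For Ctnnb1, which encodes beta-catenin, all SMA values (144, 143 and 138 FPKM) lay above all control values (136, 113 and 136), with an exact permutation p of 0.1, the smallest that 3 libraries against 3 can give, and a limma adjusted p of 0.683. Gars overlapped between the groups with and without control replicate 2.

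**Figure D3:**
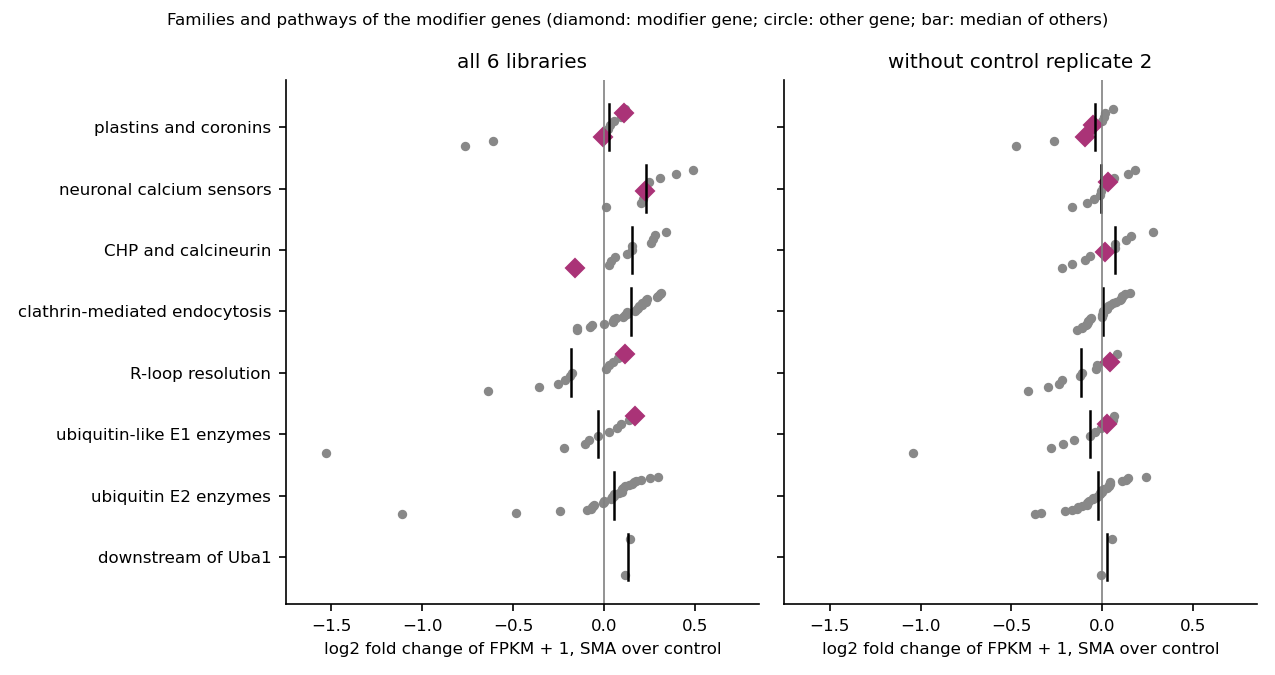
Log2 fold change of SMA over control (x axis) for each tested gene of the families and pathways, with the modifier genes as diamonds and the median of the other genes as a bar, for all libraries and without control replicate 2. The median of the calcium sensors moves from 0.23 to -0.01 between the panels, while Uba7 stays the lowest point at -1.53 and -1.04.

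The overlap of Ncald, Zpr1 and Uba1 rested on control replicate 1. Without it these 3 of the 6 genes had groups that did not overlap, with SMA higher, as did 33.6% of genes tested in either direction, and without SMA replicate 1 this held for Zpr1 alone and for 26.3% of genes tested. The exact two-sided permutation p over all 6 libraries was 0.2 for Zpr1, 0.3 for Ncald, 0.4 for Uba1, 0.6 for Chp1, 0.9 for Coro1c and 1 for Pls3, and 3 libraries against 3 cannot give less than 0.1.

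**Figure D4:**
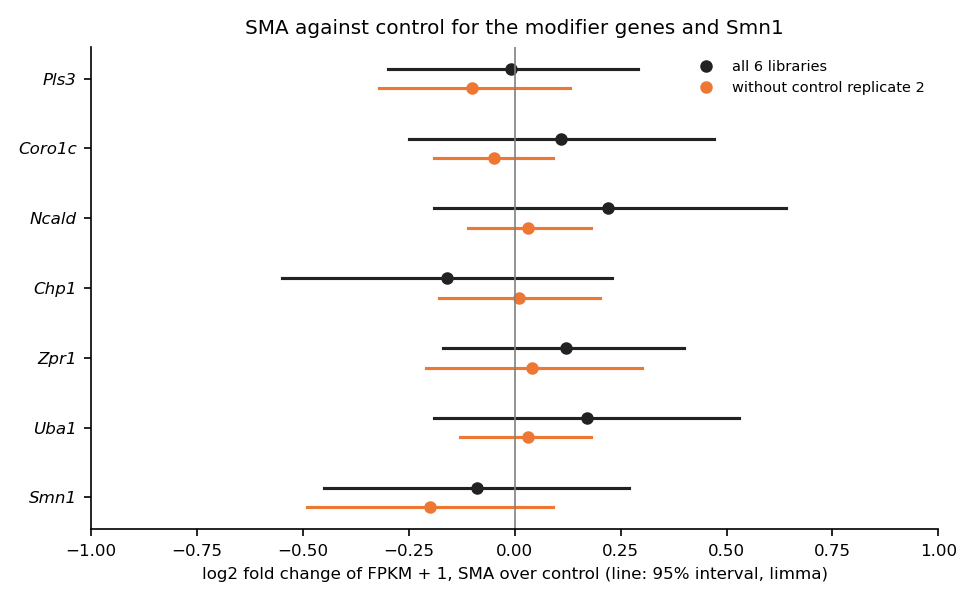
Log2 fold change of FPKM + 1 of SMA over control (x axis) with its 95% limma interval for the 6 modifier genes and Smn1, with all libraries and without control replicate 2. All intervals include 0, and the estimates of the 6 genes without control replicate 2 lie between -0.10 and 0.04.

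Without control replicate 2, the intervals of all 6 genes lay between -0.32 and 0.30 on the log2 scale, and the median distance from estimate to interval end was 0.17, against 0.36 with all libraries. The bounds nearest to a change were a ratio of FPKM + 1 of 0.80 for Pls3 and of 1.23 for Zpr1, so a 2-fold difference of any of the 6 lay outside its interval.

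Pls3 and Uba1 were read beside the sex chromosome genes, since the libraries differed in these. Xist, the RNA of the inactive X chromosome, was at 101 FPKM in control replicate 2, at 146 in SMA replicate 3, and at 0.0857 to 0.241 in the remaining 4. Y-linked Eif2s3y was at 34.2, 10.1 and 32.7 FPKM in control and at 33.6, 31.0 and 0.0325 in SMA, and Uty at 16.0, 5.42 and 11.7 and at 14.1, 14.9 and 0. Ddx3y and Kdm5d, at 5.25 and 2.25 FPKM in control replicate 2, were also at 0 in SMA replicate 3, and the remaining 4 libraries held 8.86 to 12.6 FPKM of each. Control replicate 2 thus held both Xist and Y-linked transcripts, and SMA replicate 3 held Xist with almost none from the Y. In SMA replicate 3, Pls3 (12.7 FPKM) was the lowest of the SMA libraries and Uba1 (133 FPKM) was level with SMA replicate 2, and the part of sex in these values was not tested.

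**Figure D5:**
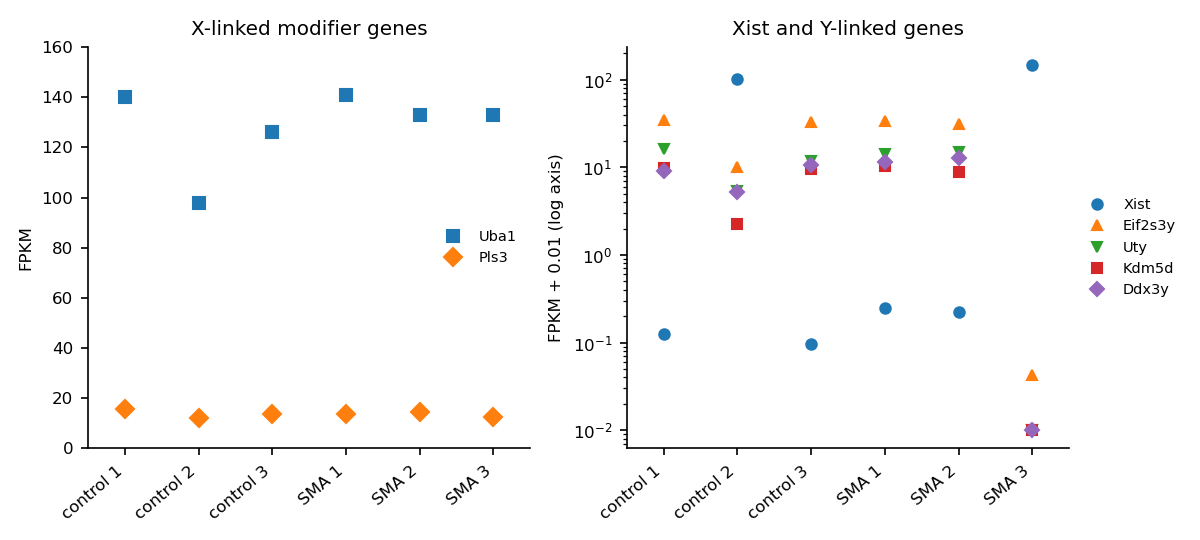
FPKM of the X-linked modifier genes (left, y axis from 0) and FPKM + 0.01 of Xist and 4 Y-linked genes (right, log axis) in the 6 libraries. Control replicate 2 shows both Xist and Y-linked transcripts, and SMA replicate 3 shows Xist at 146 FPKM with Y-linked genes at or near 0.

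Promoters of 5 of the 6 genes were matched by symbol in RefSeq on GRCm38.p6, with Ncald unmatched, and those of Chp1 and Uba1 are shown because their levels lay on opposite sides in control replicate 2. Each window holds 250 bases before and 50 after a start site, and where a gene had several the one nearest its GENCODE M21 start was taken. Capitals mark GGGCGG or its reverse complement CCGCCC, and sequences are given 5′ to 3′ on the strand of the gene, plus for both.
Chp1, chr2:119547457-119547756: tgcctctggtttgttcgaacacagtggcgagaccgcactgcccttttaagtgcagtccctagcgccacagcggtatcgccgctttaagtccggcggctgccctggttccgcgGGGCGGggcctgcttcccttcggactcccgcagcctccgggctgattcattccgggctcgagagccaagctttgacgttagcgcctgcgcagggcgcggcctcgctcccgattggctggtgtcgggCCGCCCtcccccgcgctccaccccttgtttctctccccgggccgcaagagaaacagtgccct
Uba1, chrX:20658052-20658351: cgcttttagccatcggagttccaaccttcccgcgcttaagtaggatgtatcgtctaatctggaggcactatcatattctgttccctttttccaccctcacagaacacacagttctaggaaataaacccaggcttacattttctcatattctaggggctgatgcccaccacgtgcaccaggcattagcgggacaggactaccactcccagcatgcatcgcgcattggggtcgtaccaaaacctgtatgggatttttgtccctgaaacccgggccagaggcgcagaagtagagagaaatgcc
The Chp1 window is 66.7% G or C with 30 CpG pairs and 2 matches to the motif, and the Uba1 window is 50.7% G or C with 12 CpG pairs and 0 matches. Among the others, Coro1c had 42 CpG pairs and 1 match, Pls3 6 and 1, and Zpr1 9 and 0. Of all 32851 promoters of this length, 35.7% hold the motif on either strand, and the median was 7 CpG pairs. TATAAA, searched on both strands and found in 13.6% of all promoters, was in none of the 5.

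Markers of other cell types were read beside the 6 genes. All 5 endothelial markers had a log2 fold change below 0 under every alternative run, and 4 of them were lower at an unadjusted p under 0.05 with all libraries and without control replicate 2, beside 2.39% and 5.2% of genes tested, and 0 of the 5 passed an adjusted p of 0.05 in either comparison. Cldn5, the most abundant, was at 25.8, 20.4 and 25.0 FPKM in control and at 16.4, 15.7 and 14.4 in SMA (log2 fold change -0.58, limma adjusted p = 0.683). Summed fibroblast markers, led by Col1a2, were at 161, 168 and 145 FPKM in control and at 176, 74.8 and 33.7 in SMA. All 5 of them had a log2 fold change below 0 in each alternative, with a median of -1.09, -0.87 without control replicate 2, -0.57 without SMA replicate 3 and -1.76 without SMA replicate 1. With all libraries 1 of the 5, Lum, named after its values were seen, was lower at an unadjusted p under 0.05. Its log2 fold change was -1.03, and it was -0.72 without control replicate 2, where Lum was not called. Of the 5, 0 passed an adjusted p of 0.05 in either comparison. The 3 Schwann cell markers measured here, led by the myelin gene Pmp22, summed to 45, 39.6 and 61.6 FPKM in control and to 52.7, 25.7 and 5.41 in SMA. Their median log2 fold change was -0.99, -1.08 without control replicate 2, -0.23 without SMA replicate 3 and -1.67 without SMA replicate 1, and 0 of the 3 had an unadjusted p under 0.05 with all libraries or without control replicate 2. Astrocyte, oligodendrocyte, OPC and microglia markers, led by Gfap, Mbp, Pdgfra and P2ry12, overlapped between the groups for every gene of these lists with all libraries. The groups did not overlap for 17% of genes tested there. Once control replicate 2 was left out, 1 gene in each list had no overlap, beside 28.1% of genes tested. All 6 oligodendrocyte markers had a log2 fold change below 0, from -0.38 to -0.17 and, without control replicate 2, from -0.47 to -0.39, and this held under every scaling, whereas 5 of 6 were below 0 without control replicate 3. Their summed FPKM was 795, 781 and 1217 in control and 620, 790 and 822 in SMA, with control replicate 3 the high library. The median log2 fold change of these 6 markers, -0.30, was -0.07 without control replicate 3 and -0.15 without SMA replicate 1. With all libraries, 0 genes of the astrocyte, oligodendrocyte, OPC and microglia lists had an unadjusted p under 0.05. Leaving out control replicate 2, 1 astrocyte, 1 oligodendrocyte and 1 OPC marker were lower at that p and 0 passed an adjusted p, namely the water channel gene Aqp4 (-0.24), the myelin gene Mag (-0.46) and Pdgfra (-0.17), of which Aqp4 and Mag were named after their values were seen. Of the 11 neuron markers, 0 had an unadjusted p under 0.05 with all libraries. Without control replicate 2, 3 were higher at that p, beside 5.27% of genes tested. In either comparison, 0 of the 11 passed an adjusted p of 0.05. Of these markers, 5 had no overlap between SMA and control with all libraries and 5 without control replicate 2, beside 17% and 28.1% of genes tested. Their median log2 fold change was 0.34, with all 11 above 0, and 0.05 without control replicate 2, with 9 above 0, and it was 0.53 without control replicate 1. Skeletal muscle markers, led by Acta1 at 0.369 to 3.36 FPKM, summed to at most 7.08 FPKM. The part of cell composition in the values of the 6 genes was not tested.

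The genes whose pattern over the 6 libraries was nearest to each modifier gene were taken from the 10288 others tested whose mean FPKM reached 5, by the root mean square difference of centred log2(FPKM + 1). For Ncald these were the vesicle transport GTPase Rab6a (0.017) and the dendritic microtubule protein Map2 (0.020), and Rab6a was at 147, 95.8 and 138 FPKM in control and at 140, 145 and 150 in SMA. For Uba1 they were Pcdh18 (0.018) and Pspc1 (0.021), for Coro1c Nkain3 (0.022) and Polr2m (0.024), for Pls3 Med17 (0.018) and Shprh (0.021), and for Zpr1 Eif2b2 (0.019) and Gmps (0.026). Each of these genes shared the low value in control replicate 2. The genes were chosen by likeness over the same 6 libraries, so a shared value there, low or high, is no separate result. For Chp1 they were Triobp (0.023) and Cluh (0.034), and Triobp, an actin-binding protein, was at 7.13, 11.3 and 7.82 FPKM in control and at 7.78, 7.91 and 6.97 in SMA, high in control replicate 2.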

How the data were processed

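Total RNA of spinal cord was depleted of ribosomal RNA and made into strand-specific libraries. The submitters' processing notes name HISAT2, Cufflinks and the mm10 build, and versions and the annotation release are not given in the sources used here. The authors deposited FPKM per gene for each library, computed separately, and a gene not listed in a library was taken as 0. Groups and replicate numbers came from the labels. Values were compared as log2(FPKM + 1) with limma 3.58.1 in R 4.3.3, with a variance trend and no covariate, over the 17088 genes whose mean FPKM reached 0.5, and two-sided p-values received a Benjamini-Hochberg adjustment across these genes. A fold change on this scale understates the change of low genes. The study's methods compare read counts, which were not used here. The procedure was tested on simulated data. These had the spread of the libraries without control replicate 2, so the test did not cover a library that stands apart.

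The depth of the libraries is unknown, since at most 2.39% of genes under 0.15 FPKM shared the most frequent ratio between a library and SMA replicate 1, too few to read relative depth from it. Gene loci of the 6 genes have the same start and end in GENCODE M21, with starts counted from 1. Named genes were the 6 genes and Smn1, the 2 most abundant others of each pathway list with up to 3 at an unadjusted p under 0.05, the most abundant gene of each marker list, 5 sex chromosome genes and the 2 nearest in pattern to each of the 6 genes. Genes marked as named or looked at after their values were seen were added to these. Results that need 2 genes of the lists are not reported here, and their lists were used without them. The 6 genes and the lists were chosen with earlier results of these data known. Alternatives were other pseudocounts, filters, scalings and variance models, the replicate number as a block and leaving out each library. Leaving out control replicate 2 together with median ratio scaling, and all alternatives for the pathway and marker lists, were added after seeing the data.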

Additional observations from a re-analysis of the deposited data

How the results depend on the processing

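Over 16 alternatives, 88 of 96 log2 fold changes of the 6 genes kept their direction, 0 reached an adjusted p of 0.05 in limma, and the largest in size was 0.35. The 8 that turned sign were Pls3 with the same total in every library (0.01), without control replicate 1 (0.09) and without SMA replicate 3 (0.04), Coro1c with array weights (-0.02), without control replicate 2 (-0.05) and with median ratio scaling besides (-0.06), and Chp1 in these last settings (0.01 and 0.01). Leaving out 1 library gave -0.10 to 0.09 for Pls3, -0.05 to 0.19 for Coro1c, 0.03 to 0.35 for Ncald, -0.27 to 0.01 for Chp1, 0.04 to 0.19 for Zpr1 and 0.03 to 0.28 for Uba1. Smn1 was lowest, at -0.20, without control replicate 2 and turned to 0.01 when control replicate 3 was left out.

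Genes at an adjusted p under 0.05 numbered 0 with all libraries, 2 without control replicate 2 and 1 with median ratio scaling besides (0 to 2 over libraries left out). By the study's thresholds 17 genes were lower and 12 higher, against 125 and 64 with a pseudocount of 0.1, 7 lower with array weights, 7 lower without control replicate 2 and with median ratio scaling, 4 to 131 lower and 12 to 28 higher over libraries left out. Higher genes were 58.7% of those at an unadjusted p under 0.05, 46.7% with the same total and 48.3% with median ratio scaling. The pathway genes tested numbered 103 with all libraries at a mean FPKM of 0.5 or more. In any setting, 0 of those tested had an adjusted p under 0.05. At an unadjusted p under 0.05, 4 pathway genes were lower and 1 was higher, against 10 and 2 without control replicate 2. Median ratio scaling besides left 10 and 2. Shares over all genes tested were 2.39% lower and 3.4% higher, against 5.2% and 5.27% without control replicate 2. With the same total, 0 pathway genes were higher. Over libraries left out, 1 to 10 were lower and 0 to 4 higher. Groups did not overlap for 0 to 3 of the 6 genes over libraries left out.

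The numbers of the replicates showed no pairing of the libraries: deviations of same-numbered libraries correlated across genes at -0.04, 0.02 and 0.08. Control replicate 2 was among these libraries, so a pairing could have been masked. With the replicate block, 35 genes were lower by the study's thresholds, 0 pathway genes were higher at an unadjusted p under 0.05, and no call of the 6 genes changed. FPKM holds no counts, so no interval for counting error is given. The causes of these shifts were not tested.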
